A study of Homo sapiens with 6 samples.

Results

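Mitochondrial protein import was examined through 36 genes, chosen by symbol from a table of 35615 gene symbols, all of which were present. They encode the receptors, pores, chaperones, motor and peptidases that carry nuclear-encoded proteins into mitochondria. The list was built around TOMM20, which had been seen among the larger increases of this same comparison, so its values below are a description and carry no test. Of the 36 genes, 35 passed the filter on low counts; DNAJC15, a co-chaperone of the import motor, had 0 to 2 counts per library and was not tested.

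The cells were K562, a human erythroleukaemia line driven by the BCR-ABL1 fusion kinase of chronic myeloid leukaemia. In both groups 500 pmol of a small RNA was introduced into 5 M cells by nucleofection (an electric pulse), and the cells were given 1 µM imatinib 4 h later, and lysed for RNA after another 24 h. Imatinib blocks the ABL1 kinase, and every library came from drug-treated cells. One group received a synthetic copy (mimic) of hsa-miR-92a-1-5p and the other a negative-control mimic, with 3 libraries each, called mimic 1 to 3 and control 1 to 3 here. The labels call the replicates biological and do not say what was repeated, so the spread between them may be partly technical. K562 is 1 line, and cells without imatinib or without any mimic were not analysed here.

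Most mitochondrial proteins are made in the cytosol and enter through the TOM complex of the outer membrane, where TOMM20 and TOMM22 act as receptors and TOMM40 forms the pore. From there, proteins with a presequence pass the TIM23 translocase, are pulled inward by the HSPA9 motor and are trimmed by the PMPCA-PMPCB peptidase, while small TIM chaperones, the CHCHD4-GFER disulfide relay and the SAM complex serve other classes. A microRNA lowers transcripts whose 3′ UTR pairs with its seed, bases 2 to 8.

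The mimic's sequence and the matches to its seed in import genes are shown because pairing with the seed is what a microRNA is known to act through. In the mature strand the capitals mark the seed; in the sites, read as DNA from the 3′ UTR with flanking bases, they mark the match.
hsa-miR-92a-1-5p: aGGUUGGGaucgguugcaaugcu
TOMM40L: gccagaactCCAACCAtgtggaatc
TIMM8A: acccctgccCCCAACCgtctttttc
TIMM22: tgatgccgtCCAACCAattatctca
HSPA9: ctcaggtttCCAACCAcatgaacac
The mature sequence is RefSeq's (GRCh38.p14, chr13:91351324-91351346, plus strand), and the sites come from the longest annotated 3′ UTR of each gene in GENCODE release 29 (GRCh38). They lie at chr1:161230202-161230208 (plus strand) for TOMM40L, chrX:101346712-101346718 (minus strand) for TIMM8A, chr17:1001539-1001545 (plus strand) for TIMM22 and chr5:138554458-138554464 (minus strand) for HSPA9. TIMM8A holds CCCAACC, a 7mer-m8, and the other genes hold CCAACCA, a 7mer-A1. The 7mer-m8 pairs with the whole seed. In the 7mer-A1 only CCAACC pairs, with all but the last base of the seed. Its final A lies opposite the first base of the strand, also an A, and does not pair.

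Of the 35 tested import genes, 4 (11.4%) held such a 7mer or 8mer match, against 2173 of 12888 tested genes with an annotated 3′ UTR (16.9%). The import genes also had shorter 3′ UTRs, with a median of 964 bases against 1327. TOMM20 held no 6mer, 7mer or 8mer match in its 3′ UTR of 2728 bases, nor a 7mer or 8mer in its coding sequence. Coding-sequence matches were present in HSPA9, TIMM9, TOMM40 and TOMM40L, 4 of 35 (11.4%) against 22.0% of tested genes, in shorter coding sequences (median 615 against 1425 bases). A match shows only that the letters are there.

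The table holds estimated counts per gene, given here as CPM, the count per M of library counts (M, 10 to the power 6), after scaling by the trimmed mean of M values (TMM). Depth was uneven: 5 libraries held 24.8 to 26 M counts and mimic 1 held 0.704 M. A single count was worth 1.36 CPM in mimic 1, and 0.0382 to 0.0416 CPM in the deeper libraries. The median import gene had 34 counts in mimic 1 and 1150 to 1368 in the others. All 9 erythroid-line markers were detected, with a summed level of 8410 to 17500 CPM, and the cells are labelled as myeloblasts. The 5 granulocytic myeloblast markers summed to 2.94 to 6.82 CPM in the controls and 0 to 4.37 CPM with the mimic. Of these, MPO was at 0 in all libraries, ELANE had at most 1 count, and AZU1, PRTN3 and CEBPA reached 4.82, 1.46 and 1.32 CPM. Mitochondrially encoded transcripts took 8.81% to 11.2% of control counts and 8.71% to 9.96% of mimic counts.

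TOMM20, the presequence receptor (chr1:235109336-235128936, minus strand, GRCh38), had 250.5, 246 and 236 CPM in the control libraries and 457, 491 and 468 CPM with the mimic. All 3 mimic libraries lay far above all 3 controls, and the groups' means of 244 ± 7.29 and 472 ± 17.5 CPM (SD, n = 3) differed by a factor of 1.93. The fitted log2 fold change was 0.95 ± 0.08 (SE). In mimic 1 the value rested on 336 counts, which gives an exact Poisson interval of 409.6 to 509 CPM, for counting error only. In bulk RNA, a change in the share of cells of a kind and a change in RNA per cell cannot be told apart.

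None of the other 6 genes of the TOM complex passed the test, which 1.41% of all tested genes passed. All 6 had smaller differences, as the plot by library shows. TOMM22, the central receptor that docks TOMM20, had 77.6, 80.2 and 76.5 CPM in the controls and 98.0, 84.4 and 89.1 CPM with the mimic (log2 fold change 0.19 ± 0.09). The pore gene TOMM40 had 158, 165 and 121 CPM against 146, 161 and 167 CPM (0.11 ± 0.13). Its groups overlapped, and control 3 was the low library. Without control 3 the log2 fold change of TOMM40 was -0.016.

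**Figure D1:**
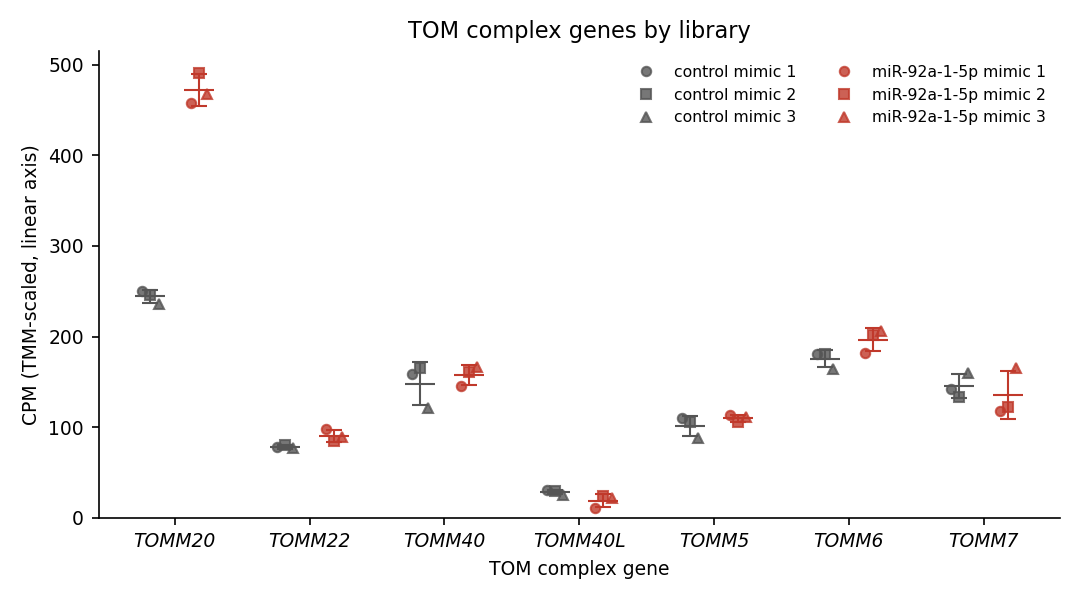
CPM (TMM-scaled, linear axis from 0) of the 7 TOM complex genes in each library; points are libraries, with bars for the group mean and SD (n = 3). TOMM20 lies at 236 to 250.5 CPM in the controls and 457 to 491 CPM with the mimic, while the groups of TOMM5, TOMM7 and TOMM40 overlap.

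The small TOM subunits, which stabilise the complex, had log2 fold changes of -0.08 to 0.18. TOMM6 had 181, 181 and 165 CPM in the controls and 182, 202 and 206 CPM with the mimic, so the groups were apart by about 1 CPM at their nearest (0.18 ± 0.09). TOMM7 had 142, 134 and 160.2 CPM against 118, 122 and 165 CPM (-0.08 ± 0.14), with overlap, and its log2 fold change was 0.0058 without control 3 and 0.015 without mimic 2. TOMM5 had a log2 fold change of 0.11 ± 0.11. The cytosolic TOMM34, which binds preproteins and chaperones, had one of 0.17 ± 0.15.

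TOMM40L, a paralog of the TOMM40 pore, was the member with the lowest log2 fold change, -0.42 ± 0.19, and did not pass. It had 30.3, 29.6 and 25.4 CPM in the controls and 10.9, 24.1 and 21.9 CPM with the mimic. All mimic libraries were below all controls, but the lowest, mimic 1, rested on 8 counts (exact Poisson interval 4.70 to 21.4 CPM), and without it the log2 fold change was -0.305.

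Ratios within a library need no scaling between libraries. Control libraries held 3.07 to 3.23 TOMM20 counts per TOMM22 count, and mimic libraries 4.67 to 5.82. The TOMM20 to TOMM40 ratio was 1.49 to 1.95 in the controls and 2.80 to 3.14 with the mimic. Against TOMM70, the other main import receptor and not one of the 36 genes, it was 1.87 to 2.32 and 4.08 to 4.75. The groups did not overlap for any of the 8 partners compared in this way (TOMM5, TOMM6, TOMM7, TOMM22, TOMM40, TOMM40L, TOMM70 and HSPA9). Because TOMM20 enters each ratio, they are 1 observation seen against several references. TOMM20 was chosen for its rise in these same libraries, so the separation of the ratios was largely set by that choice.

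TOMM20 made up 9.36% to 9.49% of all import-gene counts in the controls and 15.1% to 16.7% with the mimic. The other 35 genes summed to 2288 to 2388 CPM in the controls and 2340 to 2635 CPM with the mimic, with overlap. Per kilobase of the longest coding transcript in GENCODE, TOMM20 stood 5th of 36 in the controls, at 72.1 CPM per kb, and 3rd with the mimic, at 139 CPM per kb. TOMM6 was 1st in both groups (275.6 and 309 CPM per kb) and TOMM7 2nd (187 and 174 CPM per kb). These lengths assume that isoform, which was not measured.

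Across the list, 1 of 35 tested genes (2.86%) passed a Benjamini-Hochberg adjusted p of 0.05 in edgeR's quasi-likelihood test over all genes, against 1.41% of the 14543 tested genes (0.433% higher and 0.976% lower). That gene was TOMM20, whose change was the reason for the list, so nothing is read from the count. No import gene was called lower. GRPEL1 alone was lower at an unadjusted p under 0.05 in edgeR, as were 1092 of the 14543 tested genes. In either direction 13.5% of all tested genes reached that level. DESeq2 and limma-voom also called TOMM20 and no other import gene, and 2.24% and 1.89% of all tested genes. For the other 34 genes edgeR's adjusted p lay between 0.35 and 0.99. With the replicate number as a block, which raised the share of all tested genes called to 11.3% (4.57% higher and 6.7% lower), TOMM20 again was the sole import gene to pass, and the adjusted p of the others lay between 0.12 and 0.99.

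A p above the threshold does not show that a gene stayed level, so the 95% intervals of the log2 fold changes were compared, as a description. TOMM20 was chosen for its rise in these same libraries, so a place of its interval above the others was largely set by that choice. All 34 intervals ended below the lower end of TOMM20's interval (0.77 to 1.13). The highest upper end was 0.69, of TIMM10, and the lowest lower end was -0.86, of TOMM40L. For 28 of the 34 genes both ends lay within a 1.5-fold change in either direction, and for all 34 within a 2-fold change. The sign of a value near 0 is not settled: 12 of the 35 genes took both signs when each library was left out in turn (TOMM7, TOMM40, TIMM8B, TIMM22, TIMM17A, TIMM23, PAM16, GRPEL2, TIMMDC1, IMMP1L, CHCHD4 and MTX1). The plot of log2 fold changes by role sets these intervals side by side.

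**Figure D2:**
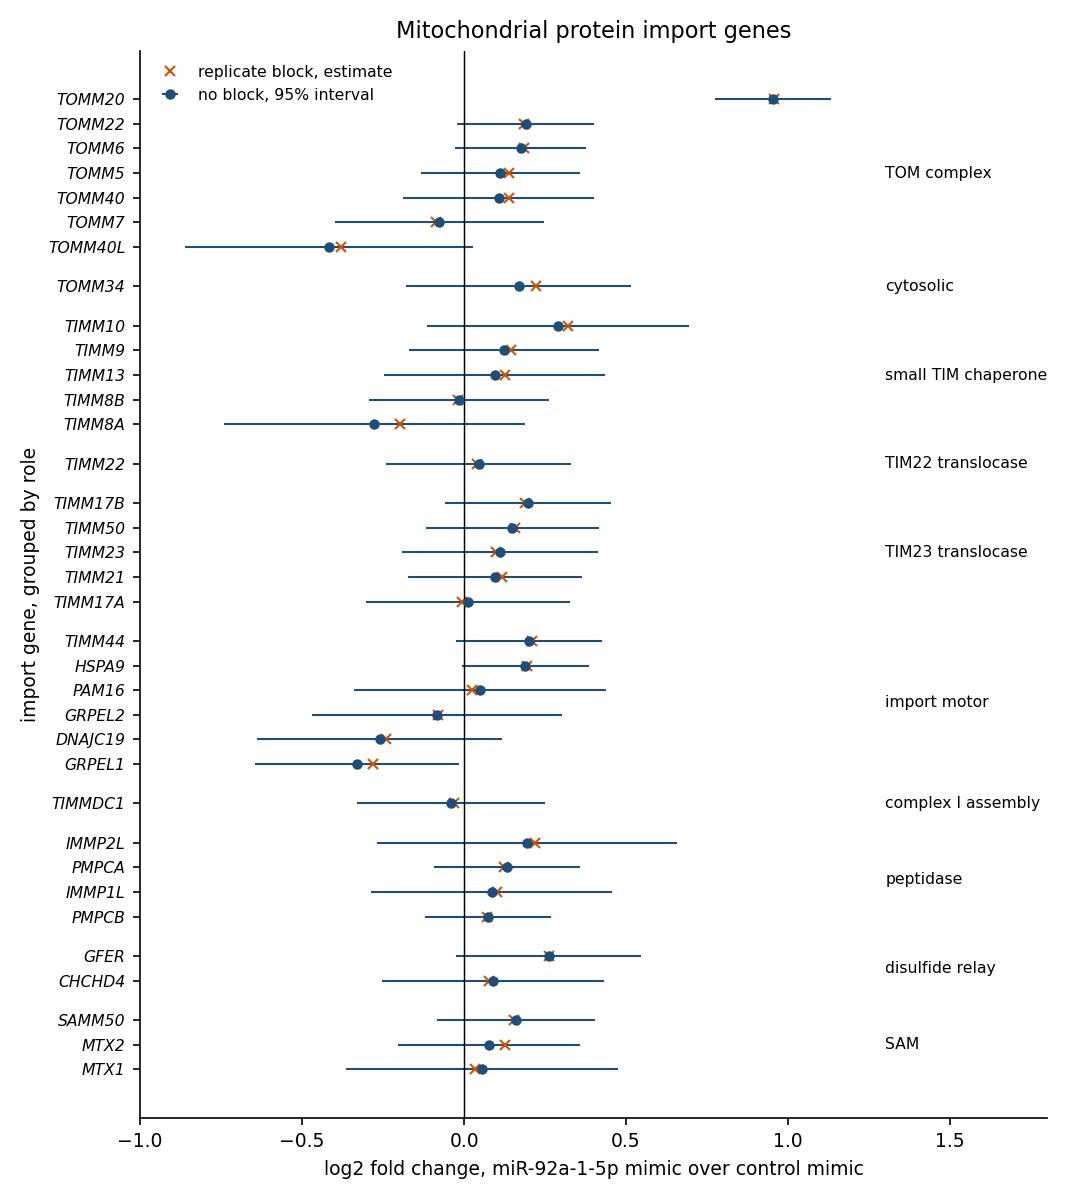
Log2 fold change (mimic over control) of the 35 tested import genes, grouped by role. Circles and bars are edgeR's estimates without a block and their 95% intervals (n = 3 libraries per group). Crosses are estimates with the replicate block. TOMM20, chosen for its rise in these libraries, is at 0.95, to the right of all other intervals.

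Inside the mitochondrion, the TIM23 translocase moves presequence proteins across the inner membrane. Its 5 genes had log2 fold changes of 0.01 to 0.20, and 0 of 5 passed, against 1.41% of all tested genes. TIMM17B had 27.7, 28.3 and 29.2 CPM in the controls and 31.3, 31.5 and 34.1 CPM with the mimic (0.20 ± 0.11). TIMM17B was the sole gene of the 5 without overlap, which 21.2% of all tested genes also lacked. Its paralog TIMM17A had 0.01 ± 0.14, and the channel gene TIMM23 0.11 ± 0.13. TIMM50, the receptor of the translocase, had 0.15 ± 0.12 and TIMM21, which links it to TOM, 0.10 ± 0.12. TIMM23 has a near-identical paralog, TIMM23B (-0.08 ± 0.14), with which reads can be shared, so both values are uncertain.

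The import motor was mixed in sign, with log2 fold changes from -0.33 to 0.20. Of its 6 tested genes 0 passed, against 1.41% of all tested genes. HSPA9, the mitochondrial HSP70 that pulls the chain inward, had 318, 312 and 294 CPM in the controls and 335, 338 and 378 CPM with the mimic. The groups did not overlap (0.19 ± 0.09). HSPA9 holds 1 of the seed matches printed above. TIMM44, which tethers HSPA9 to the channel, had 68.5, 71.4 and 61.5 CPM against 73.5, 78.3 and 77.8 CPM (0.20 ± 0.10). These are differences of 1.14-fold in both genes.

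GRPEL1, the nucleotide exchange factor that resets HSPA9, had a lower mean with the mimic. It had 46.0, 44.0 and 35.1 CPM in the controls and 32.7, 35.0 and 31.5 CPM with the mimic, with groups that were apart by under 1 CPM at their nearest (-0.33 ± 0.14). GRPEL1 was the sole member besides TOMM20 whose 95% interval left out 0, at -0.65 to -0.015. Its paralog GRPEL2 had -0.08 ± 0.17 and the co-chaperone DNAJC19 -0.26 ± 0.17. PAM16, which pairs with such co-chaperones, had 0.05 ± 0.17 and shares exons with the read-through gene CORO7-PAM16.

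The small TIM chaperones escort hydrophobic proteins through the intermembrane space, and 0 of 5 passed, against 1.41% of all tested genes. TIMM10 had 22.3, 22.7 and 18.4 CPM in the controls and 16.3, 26.8 and 28.5 CPM with the mimic. The mimic libraries lay on both sides of the controls, and the log2 fold change, 0.29 ± 0.18, was the highest after TOMM20. Its partner TIMM9 had 0.12 ± 0.13. TIMM8A, mutated in a deafness-dystonia syndrome, had 19.2, 18.4 and 12.9 CPM against 12.2, 15.9 and 12.4 CPM (-0.28 ± 0.20), and the low control 3 lay among the mimic values. TIMM8B had -0.02 ± 0.12 and TIMM13, the partner of the TIMM8 proteins, 0.09 ± 0.15. TIMM22, the channel for carrier proteins, had 0.05 ± 0.12.

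Among the peptidases, PMPCA and PMPCB, which form the presequence peptidase, had log2 fold changes of 0.13 ± 0.10 and 0.07 ± 0.08. The inner membrane peptidase genes IMMP1L and IMMP2L had 0.08 ± 0.16 and 0.19 ± 0.20. In the disulfide relay the oxidase GFER had 29.97, 29.2 and 30.1 CPM in the controls and 29.9, 34.2 and 39.4 CPM with the mimic (0.26 ± 0.12). Mimic 1 lay within the control range and the other mimic libraries above it. CHCHD4, the import receptor that GFER reoxidises, had 0.09 ± 0.15. The outer membrane assembly genes SAMM50, MTX1 and MTX2 had 0.16 ± 0.11, 0.05 ± 0.18 and 0.08 ± 0.12, and for MTX1, as for PAM16, the ratio of the groups' mean CPM was below 1 (0.979 and 0.955), opposite in direction to the fitted value. TIMMDC1, a TIM17-family protein that assembles complex I, had -0.04 ± 0.13.

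The 4 members with a 3′ UTR seed match had log2 fold changes on both sides of 0: TOMM40L and TIMM8A were among the 3 lowest of the list, TIMM22 was near 0, and HSPA9 was above it. None of the 4 passed in edgeR's test with or without the replicate block. Of all tested genes 1.41% passed without the block and 11.3% with it, so nothing is read from a count over 4 genes.

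Non-overlapping groups were seen for 8 of 35 import genes (22.9%), 6 higher and 2 lower with the mimic, against 21.2% of all tested genes (9.73% higher and 11.5% lower). The list as a whole had a median log2 fold change of 0.10, with 27 of 35 estimates above 0 (77.1%) and 28 (80%) within 0.25 of 0. All tested genes had a median of -0.01, with 48.3% above 0 and 62.5% within 0.25 of it. The 2 sets were not matched for level. Median counts in the deeper libraries were 1150 to 1368 for the import genes and 556 to 613 for all tested genes, and low counts scatter more. Without TOMM20 the median was again 0.10. Same-numbered libraries gave different medians: -0.05 in pair 1, where 16 genes were higher and 19 lower, 0.07 in pair 2 (27 and 8) and 0.18 in pair 3 (28 and 7). The medians of all tested genes were -0.07, 0.0017 and -0.013 in pairs 1, 2 and 3, so pair 1 was below 0 for all genes as well. TOMM20 differed by 0.87, 1.00 and 0.98 in pairs 1, 2 and 3. Leaving out mimic 3 lowered the median to 0.06, with 21 genes above 0 and 14 below.

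**Figure D3:**
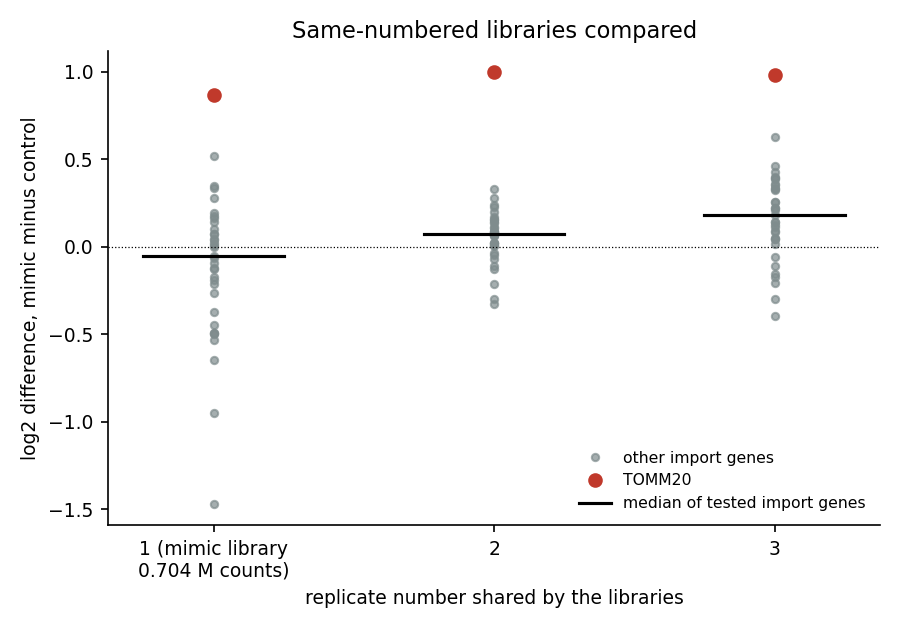
Log2 difference (mimic minus control) within same-numbered libraries for each tested import gene, with black bars at the median of the 35 genes. TOMM20 lies at 0.87, 1.00 and 0.98, above every other import gene in each pair, and the medians are -0.05, 0.07 and 0.18.

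Control 3 stood further from the other controls than they did from each other. Over the import genes, it differed from the mean of control 1 and 2 by a median of 0.16 on the log2 scale in absolute value, against 0.04 between control 1 and 2. Over all tested genes these values were 0.23 and 0.09. In 23 of 35 import genes (65.7%) mimic 3 differed from mimic 2 in the direction in which control 3 differed from the other controls, against 71.5% of all tested genes. The part of these library differences in the list's median was not tested.

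The wider import and quality control genes were counted in the same way, as 36 genes outside the list, of which 35 were tested. None passed without the block in edgeR, against 1.41% of all tested genes. DESeq2 and limma-voom called 0, against 2.24% and 1.89% of all tested genes. At an unadjusted p under 0.05 in edgeR 3 were higher and 1 lower, a level that 13.5% of all tested genes reached. The median log2 fold change of the 35 wider genes was 0.07, against -0.01 for all tested genes. Of the 35, 22 were above 0 (62.9%, against 48.3% of all tested genes) and 13 below. TOMM70 had 134, 128 and 102 CPM in the controls and 107, 120.5 and 98.5 CPM with the mimic (-0.16 ± 0.13), with overlap. TOMM20L, the TOMM20 paralog, had 0 to 16 counts per library and was not tested. MIPEP, an intermediate peptidase of the matrix, had the highest value of the 35, from 12.2 ± 0.807 CPM in the controls to 17.0 ± 1.03 CPM with the mimic (SD, n = 3), a log2 fold change of 0.46 ± 0.15 that did not pass with or without the block. The 8 MICOS genes of crista junctions ranged from -0.09 to 0.29.

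With the replicate block 2 of these 35 genes passed, against 11.3% of all tested genes. LONP1, the matrix AAA+ protease, rose by 0.37 ± 0.09 on the log2 scale (edgeR adjusted p = 0.0091 with the block and 0.15 without). It had 174, 171 and 159 CPM in the controls and 195, 207 and 239.6 CPM with the mimic, without overlap. PITRM1, which degrades cleaved presequences, fell by 0.31 ± 0.09 (edgeR adjusted p = 0.025 with the block and 0.33 without). Its values were 116, 135 and 148 CPM against 109, 104 and 115 CPM, with control 1 and mimic 3 less than 1 CPM apart. With the block and pair 2 left out neither passed, when 5.7% of all tested genes were called. LONP1 and PITRM1 passed without pair 1 (8.37% of all tested genes called) and without pair 3 (9.76%). The matrix chaperone genes HSPD1 and HSPE1 had blocked log2 fold changes of -0.03 ± 0.07 and 0.27 ± 0.09 and did not pass.

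Nuclear regulators of mitochondrial genes gave 0 calls among 9 tested, with or without the block in edgeR. The share of all tested genes called was 1.41% without the block and 11.3% with it. At an unadjusted p under 0.05 in edgeR without the block, 1 regulator was higher (TFB2M) and 1 lower (PPRC1). That level was reached by 13.5% of all tested genes. NRF1 had a log2 fold change of 0.16 ± 0.16 and GABPA, the DNA-binding subunit of GABP, 0.12 ± 0.11. In RefSeq promoters (GRCh38.p14, 250 bases before to 50 after the start), searched on both strands, 33 of the 36 import genes had an entry. The NRF1-type motif GCGCNTGCG was in 9 of these 33 (27.3%), against 8.05% of 27305 promoters; the 9 were TOMM20, TOMM7, TOMM34, TOMM40, TIMM9, TIMM50, PAM16, GRPEL2 and CHCHD4. The ETS-type motif ACCGGAAG, which GABP can bind, was in 4 (12.1%), TOMM20, TOMM22, TIMMDC1 and GRPEL2, against 2.32%. The YY1-type motif AAGATGGCG was in PMPCA, IMMP1L, TIMM50 and TOMM40L, again 12.1%, against 1.85%. No matches of different motifs overlapped in these promoters, and binding was not measured. The 27305 promoters include those of genes that were not tested, so they were not matched to the import genes for expression or base content.

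Copies of import genes elsewhere in the genome can share reads. TOMM20 has 4 pseudogene symbols in the table, which held 3 counts in all over the 6 libraries, and adding pseudogene counts to their parents left TOMM20 at a log2 fold change of 0.95. How the authors' quantification divided reads between TOMM20 and its copies is not given in the sources used here, so its level is uncertain to that extent. The snoRNA SNORA14B lies within TOMM20 on the same strand. TOMM20 overlaps no annotated gene on the opposite strand, but 19 of the 36 import genes do (TOMM6, TOMM34, TOMM40, TOMM40L, TIMM8B, TIMM9, TIMM13, TIMM17B, TIMM22, TIMM44, TIMMDC1, PAM16, DNAJC19, GRPEL2, PMPCA, PMPCB, IMMP2L, GFER and MTX1). Overlap was taken over whole genes, introns included, and whether exons overlap was not checked. Reads from exons shared by such a pair cannot be told apart if strand was not used in counting, a setting that is not given. The values of these 19 are uncertain to that extent only where exons are shared. The plot of fold change against mean level sets the import genes among all tested genes.

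**Figure D4:**
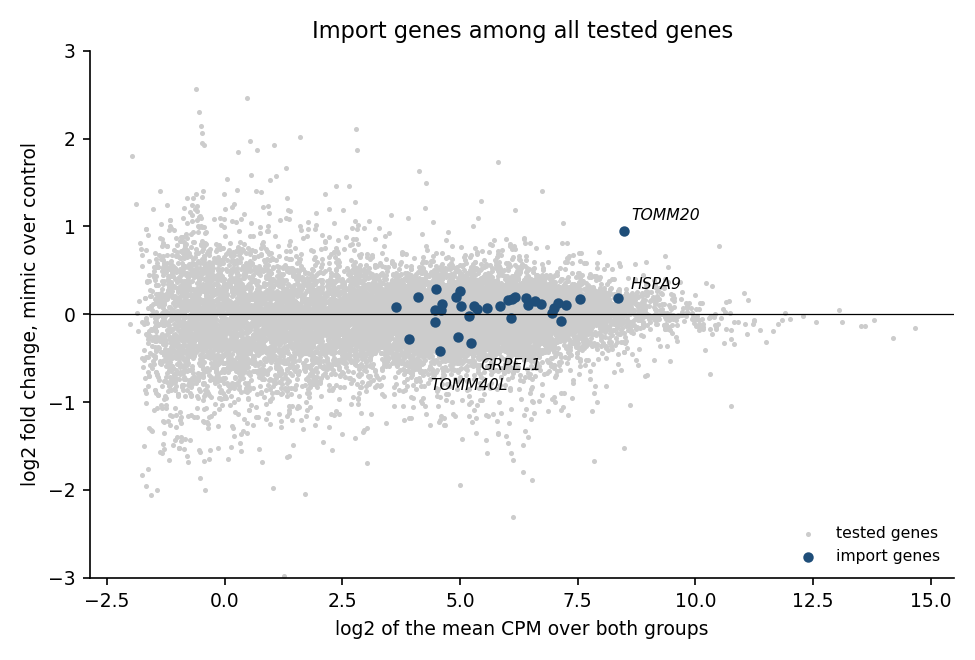
Log2 fold change (mimic over control) against log2 mean CPM for tested genes (grey) and the 35 tested import genes (blue); 3 tested genes fall outside the plotted range of -3 to 3. The import genes other than TOMM20 lie between -0.42 and 0.29, and TOMM20 lies at 0.95.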

How the data were processed

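Total RNA from 6 K562 libraries, 3 per mimic, was sequenced as read pairs at an average coverage of 62 M, per the labels. The authors deposited expected counts: kallisto's estimated reads by gene symbol, as whole numbers. The tool and GRCh38 are named in the submitters' processing notes. The kallisto version, annotation, strand setting and the step from transcripts to genes are not given in the sources used here. All 6 sample columns were used, and 0 others held samples. Every library was at 0 for 12102 symbols.

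Counts were analysed with edgeR 4.0.16 in R 4.3.3: filterByExpr (14543 genes kept), TMM scaling and the quasi-likelihood test on group over the whole table, with Benjamini-Hochberg adjustment at 0.05. The standard error is the fold change divided by the square root of F, and intervals use it with the test's degrees of freedom. Log2 values per library used a prior count of 2. The members, lists and rules were chosen with earlier results of these data known. Values in every library are given for TOMM20, for members that passed with or without the block, for the 3 highest and 3 lowest log2 fold changes and for the 5 most abundant members by mean CPM; such values for TOMM22, TIMM17B and TIMM44, and for the non-members LONP1, PITRM1 and TOMM70, were added after they were seen. Correlations with TOMM20 across libraries are not given, since its values form separate groups.

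Same-numbered libraries deviated together from their group means (r = 0.15, 0.16 and 0.42 for replicates 1, 2 and 3 over all tested genes), all above 0.1, so results of a blocked fit (replicate number as the blocking factor) stand beside those calls that it changes. Replicates 1 and 2 were hardly distinct: unlike numbers gave r = 0.099 (control 1 with mimic 2) and 0.09 (control 2 with mimic 1), and over the 4829 genes averaging at least 1000 counts control 1 correlated more with mimic 2 (0.52) than with mimic 1 (0.37). Alternatives were DESeq2 1.42.0, voom in limma 3.58.1, other scalings and filters, pseudogene counts added to their parents, and libraries left out. The code was tested on simulated data. Sites and promoters were searched with Python 3.11.15 and pandas 2.3.3.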

Additional observations from a re-analysis of the deposited data

How the results depend on the processing

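TOMM20, chosen for its rise in these libraries, had log2 fold changes from 0.92 to 0.97 with 1 library left out and 0.93 to 1.00 with the replicate block and 1 pair left out. The counts of import genes called (1 higher, 0 lower) were the same in every alternative, including the replicate block; the 1 is TOMM20, so this is no independent support for it. The list's median was 0.12 with the block, 0.06 to 0.13 with 1 library left out and 0.09 to 0.14 with the block and 1 pair left out; the last, for pairs 2 and 3, was chosen after seeing the data. Among the wider genes, the replicate block gave 1 higher (LONP1) and 1 lower (PITRM1) against 0 and 0 without it; with the block and 1 pair left out, 0 to 2 were higher and 0 to 1 lower. Without pair 1 the higher genes were LONP1 and HSPE1 (adjusted p = 0.0215 and 0.047 in edgeR), and without pair 2 neither LONP1 nor PITRM1 passed. The block changed no other call among the genes named. Of the 35 members, 12 changed sign with 1 library left out, among them TIMM17A (-0.058 to 0.15), TIMM23 (-0.047 to 0.20), PAM16 (-0.13 to 0.14) and MTX1 (-0.17 to 0.19). TOMM7 ranged from -0.27 to 0.015, being above 0 without control 3 (0.0058) and without mimic 2 (0.015), and TOMM40 from -0.016 (without control 3) to 0.19. With the replicate block and without pair 3, TOMM40 was at -0.057. The cause was not tested. Searching the 3′ UTRs of all protein-coding transcripts left 4 import genes with a seed match, and counting 6mers gave 5. Mimic 1, with 34 counts for the median import gene, limits each value it enters.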
